A study of Homo sapiens with 12 samples.

Results

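The 6 estradiol arrays of ECC1 endometrial cancer cells, of 12 arrays in all, were sorted by their own reading of MTDH rather than by their deposited label. Arrays with an MTDH value above 10 (log2) formed a high group of 3, and arrays below 9.5 formed a low group of 3. The high group held parental estradiol replicates 1 and 2 and the array labelled knockout estradiol replicate 1. The low group held knockout estradiol replicates 2 and 3 and the array labelled parental estradiol replicate 3. So 2 arrays, 1 of each label, fell on the side opposite to their label, and 4 arrays had a label and an MTDH level that went together. Because measured values formed these groups, differences between them are given as a description with no test.

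ECC1 is a human line grown from an endometrial carcinoma. The study had parental cells and 1 line in which MTDH had been knocked out, each without hormone or with 10 nM estradiol for 24 h, with 3 arrays for each of the 4 labelled groups. Per the labels' protocol, both lines were kept for 24 h before estradiol in medium whose 5% serum had been stripped with charcoal, which removes most steroid hormone. Whether the untreated cells stayed in it for as long is not stated there. The knockout was represented by 1 line, so a difference between the lines cannot be told apart from a difference of that line for another reason. Nothing in the labels tells replicates apart as cultures of their own, so p-values measure only the spread between these arrays, which may be technical.

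MTDH, also called metadherin or AEG-1, is a membrane-associated protein that is often abundant in carcinomas, where it has been tied to signalling through AKT and NF-kappaB and to drug resistance. Estradiol acts in endometrial epithelium through the estrogen receptor encoded by ESR1, a transcription factor that binds DNA and raises or lowers the genes nearby. Secretory endometrial epithelium makes mucins, which coat its surface and fill the glands, and rests on a matrix of collagens and matricellular proteins.

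The values are log2 intensities from Illumina arrays, with 1 value per gene and array. Array medians lay between 6.78 and 6.86, so a gene near 6.8 is at the level of the middle of all entries, many of which carry no clear signal. Genes brighter than 6.817 on at least 3 arrays were kept, which left 19670 of 34595. With 3 arrays per group, precision is limited by their number.

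MTDH read 10.83 and 10.96 on parental estradiol replicates 1 and 2 and 10.94 on the array labelled knockout estradiol replicate 1. It read 8.97 on the array labelled parental estradiol replicate 3 and 8.49 on each of knockout estradiol replicates 2 and 3. The lowest value inside the high group was thus 10.83 and the highest inside the low group 8.97, with no array between them. On the untreated arrays, which the grouping did not use, MTDH was 11.43, 11.18 and 10.78 in parental cells and 8.57, 8.53 and 8.59 in knockout cells. Knockout cells were lower there by −2.57 ± 0.13 (SE, n = 3 per group, limma adjusted p = 9.8e-08). The 8.97 of the array labelled parental estradiol replicate 3 was above all 5 other arrays at the low level, at the 86.7 percentile of its own array against 82.8 to 84.0 for the others.

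**Figure D1:**
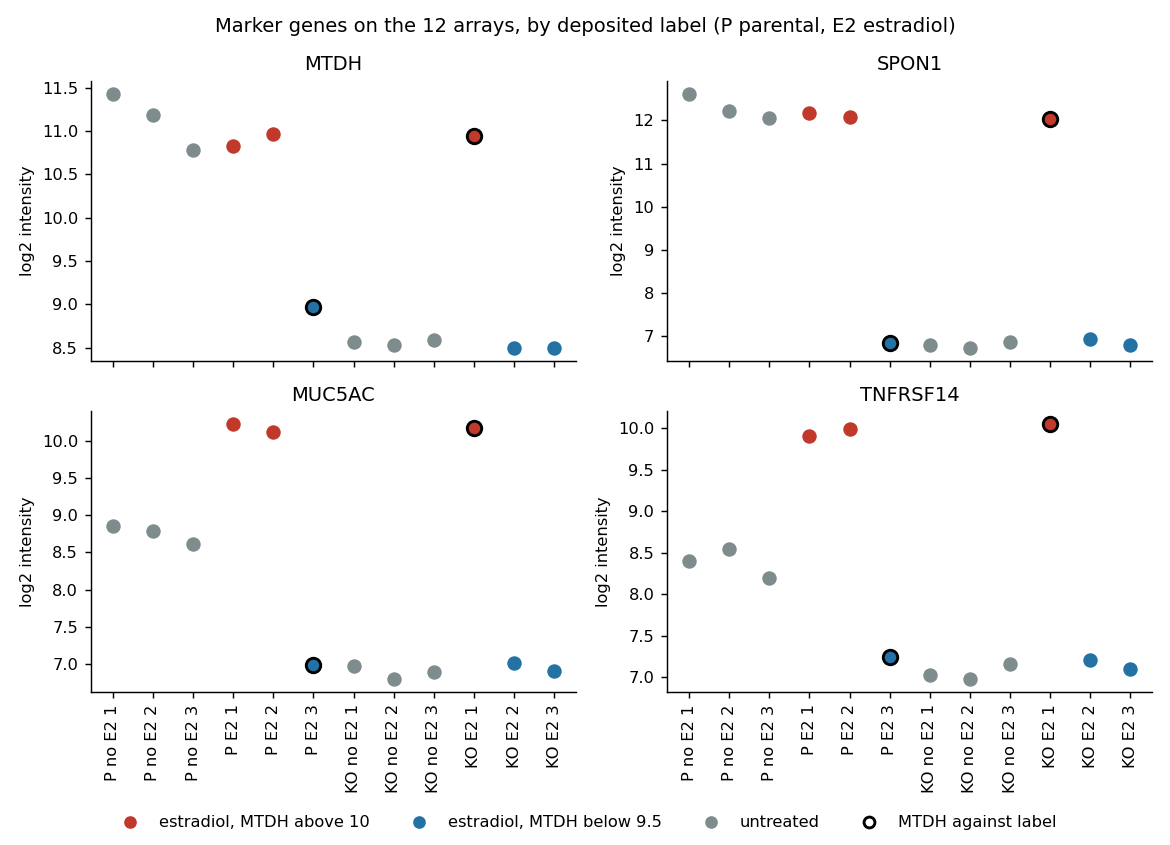
Log2 intensity of MTDH, SPON1, MUC5AC and TNFRSF14 on each of the 12 arrays, ordered by deposited label (P parental, KO knockout, E2 estradiol); 1 point is 1 array, coloured by MTDH group, and a black ring marks an array whose MTDH goes against its label. In each panel the ringed knockout array lies with parental estradiol replicates 1 and 2, and the ringed parental array lies with the low group.

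With the deposited labels, the estradiol groups could not be told from one another. A linear model over all 12 arrays called 0 of 19670 genes (0%) between knockout and parental cells in estradiol, at a limma adjusted p under 0.05, and 1064 genes had an unadjusted p under 0.05. Without overlap between the labelled groups, 545 genes were higher in knockout (2.77% of genes) and 1171 lower (5.95%), and 0 of these differed by 2-fold. SPON1, the gene furthest apart by label in the downward direction, read 12.18, 12.07 and 6.83 in the parental label and 12.04, 6.93 and 6.78 in the knockout label. The labelled difference was −1.78 ± 1.36 (adjusted p = 0.91), and 1 array of each label lay among the values of the other label's remaining arrays.

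Sorted by MTDH, the same 6 arrays separated for many genes. In the low group 3646 genes were higher without overlap (18.5% of genes) and 1855 lower (9.43%). Of these, 37 were at least 2-fold higher (0.188%) and 66 at least 2-fold lower (0.336%), MTDH among the latter. The median over all genes was 0.03. Without knockout estradiol replicate 3 the 3646 became 7111, and the 1855 became 3007 without parental estradiol replicate 3 and 2924 without knockout estradiol replicate 2. Of the genes without overlap 66.3% were higher in the low group, and quantile normalization moved that share to 54.8%. Over the 4 arrays whose label and MTDH went together, 32 genes were at least 2-fold higher in knockout without overlap (0.163%) and 74 at least 2-fold lower (0.376%). When the labelled fit was repeated on 10 arrays, without the 2 that went against their labels, limma called 1926 genes in estradiol (9.79%), 976 higher and 950 lower. Those 2 arrays were left out for their MTDH value, so this count is not independent of the grouping.

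The untreated arrays gave genes that were called in a fit without any estradiol array, although the brightness filter before it counted all 12 arrays. In a fit of those 6 arrays alone, 1148 genes were higher (5.84%) and 2653 lower (13.5%) in knockout cells at an adjusted p under 0.05. Quantile normalization turned that balance to 1835 higher and 1566 lower. Of the called genes, 104 differed at least 2-fold. Each estradiol array was then placed on a scale on which 0 was the untreated knockout mean of a gene and 1 its untreated parental mean, over the 103 such genes other than MTDH. The median position was 0.950 and 0.949 for parental estradiol replicates 1 and 2 and 0.940 for the array labelled knockout estradiol replicate 1. It was 0.0480 for the array labelled parental estradiol replicate 3, and 0.0418 and −0.00104 for knockout estradiol replicates 2 and 3. The 3 high arrays lay at the parental end and the 3 low arrays at the knockout end, with none in the middle. On the array labelled parental estradiol replicate 3, 93 of the 103 genes were nearer the knockout mean, and on the array labelled knockout estradiol replicate 1, 9 were.

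**Figure D2:**
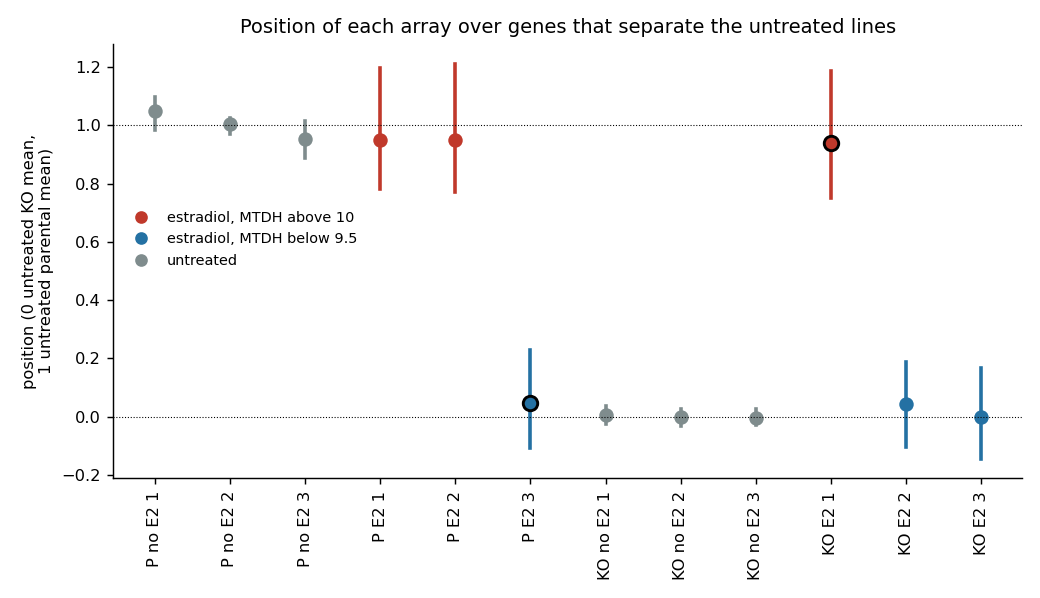
Position of each array over 103 genes that differed at least 2-fold between the untreated lines, MTDH left out; points are medians over genes and bars run from the lower to the upper quartile. The untreated arrays define 0 and 1; the ringed arrays, whose MTDH went against their label, lie at 0.0480 and 0.940.

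Within a group the arrays were close, although knockout estradiol replicate 3 was nearer its own group than the other for only 45.9% of genes, against 59.6% to 64.2% for the other arrays. Across genes, which are not independent replicates, Pearson's r was 0.9962 to 0.9971 for the 6 pairs within a group and 0.9865 to 0.9890 for the 9 pairs across groups. PLIN5, a lipid droplet protein, was the 1 gene that stood at least 2-fold off in the high group, at 8.80 on parental estradiol replicate 1 against 7.71 and 7.69. In the low group this was SSR3, a subunit of the translocon-associated complex, at 7.44 on knockout estradiol replicate 3 against 8.53 and 8.35. Both genes were chosen after their values were seen. Of the 103 genes that separated the untreated lines, the array labelled parental estradiol replicate 3 was the low array nearest the parental side for 54, against 27 and 22 for the others. The array labelled knockout estradiol replicate 1 was the high array nearest the knockout side for 51, against 31 and 21.

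The widest gap was in SPON1, or spondin 1, a secreted matrix protein, which averaged 12.10 in the high group and 6.85 in the low group, a difference of −5.25 or 38.2-fold. The low value is at the level of array medians, so the fold is set partly by background. MUC16, the membrane mucin that carries the CA125 antigen, read 10.82, 10.74 and 10.80 on the high arrays and 7.38, 7.12 and 7.27 on the low arrays (−3.53). MAL, a protein of apical membrane sorting, read 12.19, 12.29 and 12.23 against 8.52, 8.57 and 8.32 (−3.77). In each of these genes, the 3 arrays of a group lay within 0.3 of one another.

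Other wide gaps fell in the same direction. LEFTY2, a secreted inhibitor of nodal signalling known from late secretory endometrium, differed by −3.18, and COL6A1, a collagen VI chain, by −2.82. TMPRSS2, a surface serine protease, differed by −2.66, LCN2, which binds iron-carrying siderophores, by −2.49, and SLC34A2, a phosphate transporter, by −2.26. TMPRSS2 read 10.65, 10.68 and 10.31 on the high arrays, the lowest of them on the array labelled knockout estradiol replicate 1. On the low arrays it read 8.12, 7.87 and 7.66, the highest of them on the array labelled parental estradiol replicate 3. All of these genes were also lower in untreated knockout cells, with adjusted p from 6e-11 (MUC16, −3.79 ± 0.07) to 1.8e-07 (LEFTY2, −2.98 ± 0.16).

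In the other direction, the low group was higher in genes of several kinds. SERPINE2, an inhibitor of thrombin and plasminogen activators, read 10.57, 10.41 and 10.24 on the low arrays and 8.05, 8.03 and 7.82 on the high arrays, a difference of 2.44 or 5.41-fold. ALDH3A1, an aldehyde dehydrogenase, read 11.86, 11.97 and 11.97 against 9.65, 9.53 and 9.73 (2.29). The groups did not overlap in either gene. ACTA2, smooth muscle actin (1.88), ID3, a BMP-responsive inhibitor of transcription factors (1.78), the receptor tyrosine kinase KIT (1.63) and SPP1, the secreted phosphoprotein osteopontin (1.54), were also higher. BEX1 (1.70), TMSB15A, an actin-binding thymosin (1.67), SRPX (1.63), GPRC5C (1.56), TCEAL2 (1.51) and the tubulin TUBB2B (1.48) made up the other largest gaps. Each of these 12 genes was higher in untreated knockout cells too, with adjusted p from 1.9e-10 (ALDH3A1) to 3.5e-07 (TCEAL2).

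**Figure D3:**
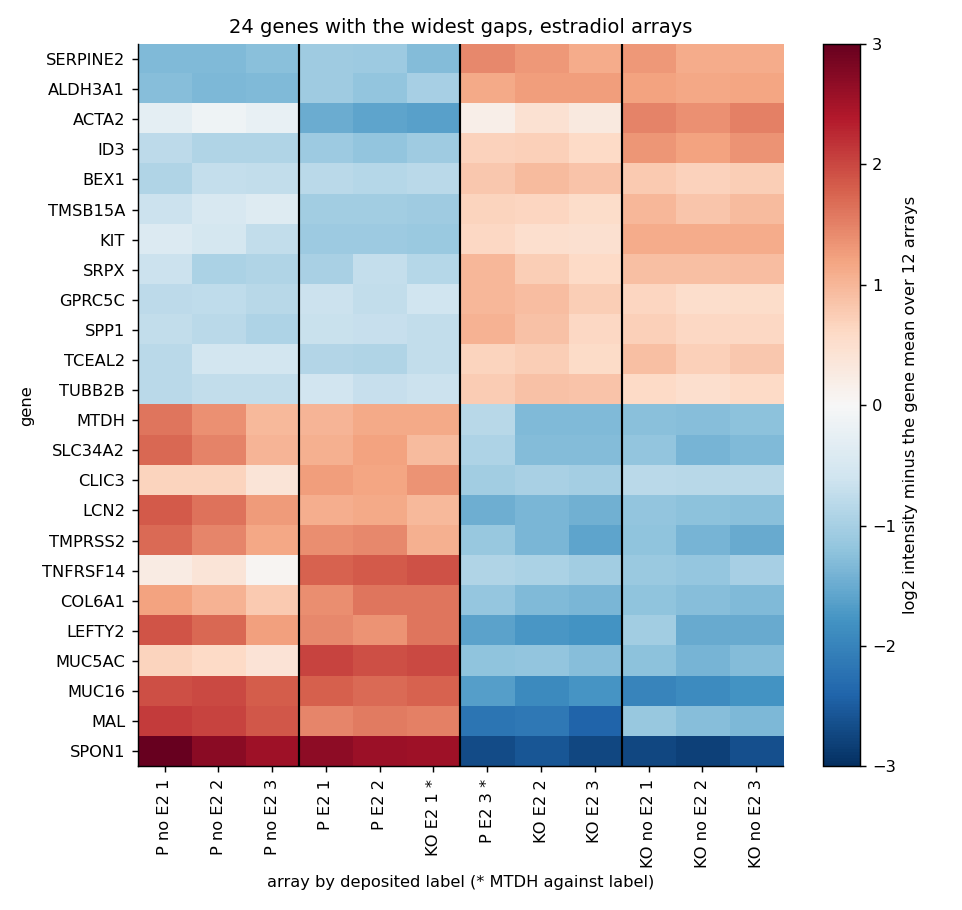
Log2 intensity minus each gene's mean over 12 arrays, for the 12 genes furthest higher and the 12 furthest lower in the low MTDH group among those without overlap; columns are arrays, with vertical lines between untreated parental, high MTDH estradiol, low MTDH estradiol and untreated knockout arrays, and an asterisk for the 2 arrays whose MTDH goes against their label. The starred columns match their MTDH group, and SPON1 has the strongest colours.

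Most large differences between the untreated lines were found again between the MTDH groups, which share no array with them. MTDH, which formed the groups, is left out of the 2-fold counts that follow. Of the 103 other genes called and at least 2-fold apart between the untreated lines, 102 had the same sign in estradiol and did so without overlap (99.0%). Over all tested genes, 18.5% were higher and 9.43% lower in the low group without overlap. The exception was the row named MIR1974, which rose in untreated knockout cells (1.07 ± 0.12, adjusted p = 0.00013) and differed by −0.33 between the MTDH groups with overlap. Over all 3801 genes called between the untreated lines, 80.3% kept their sign, 96.3% of the genes higher in knockout and 73.4% of the genes lower. The median difference over all tested genes was 0.03 between the MTDH groups and −0.03 between the untreated lines. The share of all tested genes with the same sign was not counted, so the 96.3% and 73.4% have no background beside them. Quantile normalization raised the 80.3% to 90.4%. Of the 102 other genes at least 2-fold apart between the MTDH groups, 101 were called in the same direction between the untreated lines. Over all tested genes, 5.84% were called higher and 13.5% lower in untreated knockout cells. The 2-fold lists had 79 genes in common, 77.5% of the estradiol list and 76.7% of the untreated list. Across 19670 genes the differences had a Pearson's r of 0.730, a description over genes measured on the same array type.

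**Figure D4:**
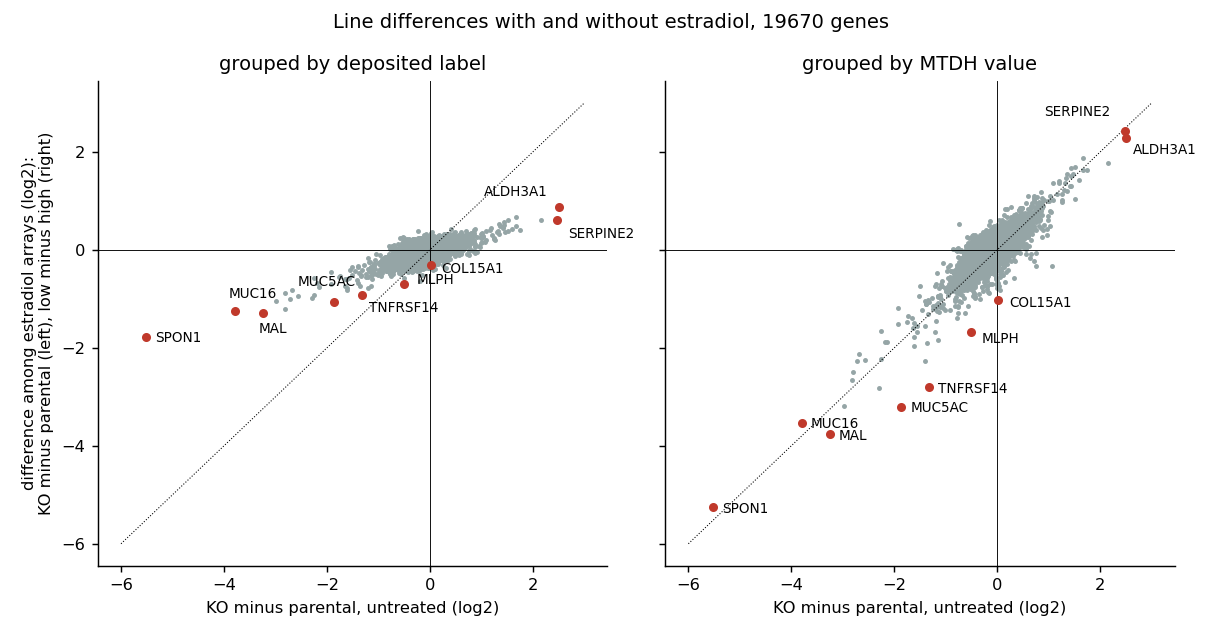
Difference between the estradiol arrays (vertical axis, log2) against knockout minus parental on the untreated arrays (horizontal axis, log2), 1 point for each of 19670 genes, with the estradiol arrays grouped by deposited label on the left and by MTDH value on the right; the dotted line marks equal differences. SPON1 is at −1.78 by label and −5.25 by MTDH value, against −5.52 untreated; MUC5AC, TNFRSF14, MLPH and COL15A1 lie below the dotted line on the right.

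A few genes had a wider gap in estradiol than between the untreated lines. TNFRSF14, the receptor HVEM, which binds LIGHT and BTLA on lymphocytes, read 9.91, 9.99 and 10.05 on the high arrays and 7.24, 7.21 and 7.10 on the low arrays. Untreated, it read 8.40, 8.54 and 8.20 in parental cells and 7.03, 6.98 and 7.16 in knockout cells. Its gap was −2.80 in estradiol and −1.32 ± 0.09 untreated (adjusted p = 1.3e-06). MUC5AC, a gel-forming mucin, read 10.22, 10.12 and 10.17 on the high arrays and 6.98, 7.02 and 6.91 on the low arrays. It read 8.85, 8.78 and 8.61 untreated in parental cells and 6.97, 6.80 and 6.89 in knockout cells. For both genes the high arrays stood above the untreated parental arrays, by a mean of 1.61 for TNFRSF14 and 1.42 for MUC5AC. The low and untreated knockout means were 7.18 and 7.06 for TNFRSF14 and 6.97 and 6.89 for MUC5AC, close to array medians, where a change could be hidden by background.

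MLPH, melanophilin, which links RAB27 vesicles to myosin, differed in another way, being above the untreated level on all 6 estradiol arrays. It read 10.43, 10.44 and 10.37 on the high arrays and 8.89, 8.72 and 8.61 on the low arrays, against 7.55 and 7.04 for the untreated parental and knockout means. COL15A1, a basement membrane collagen, read 7.72, 7.75 and 7.80 on the high arrays and 6.75, 6.77 and 6.72 on the low arrays. It was the 1 gene at least 2-fold apart between the MTDH groups that was not called untreated, where the lines differed by 0.02 ± 0.06 (adjusted p = 0.91). It passed the filter through the 3 high arrays alone, and the other 9 arrays read 6.66 to 6.81, at the level of array medians, so no untreated difference could be seen there. CLIC3, a chloride channel-like protein (−2.27 against −1.40 untreated), ALPPL2, an alkaline phosphatase (−0.57 against 0.32), and the small Cajal body RNA SCARNA23 (−0.81 against 0.06) also had wider or turned gaps.

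The opposite pattern, a gap less negative or more positive in estradiol, was led by FLJ20021 (−0.26 against −1.04 untreated). NDST1, a heparan sulfate sulfotransferase, was lower in untreated knockout cells (−0.48 ± 0.08, adjusted p = 0.0014) but higher in the low group, by 0.29. LOC728026 (0.30 against −0.48) and LOC643287 (0.28 against −0.47) turned likewise. Whether these rows share signal with related sequences was not tested. For SCGB2A1, a secretoglobin (−1.18 against −1.93), and TMTC1 (−0.74 against −1.50) the gap was narrower. With the deposited labels, the test of the difference between the 2 line contrasts called 1 of 19670 genes (0.00508%), and 2069 had an unadjusted p under 0.05. That gene, LOC730255, had a gap of 0.07 between the MTDH groups. TNFRSF14 (adjusted p = 0.93), MUC5AC (0.87), MLPH (0.95) and COL15A1 (0.82) were not called by that test. Without the 2 arrays against their labels that test called 148 genes (0.752%), a count that again depends on the MTDH reading and includes these 4 genes.

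Promoter sequence is shown for 3 genes whose gap was wider in estradiol and that had a single entry in the RefSeq promoter table (GRCh38.p14), to show whether the letters of an estrogen response element lie next to the start. Each is the 250 bases before the gene's start, with matches to GGTCA or TGACC, the core motif on either strand, in capitals.
TNFRSF14, chr1:2556121-2556370, plus strand: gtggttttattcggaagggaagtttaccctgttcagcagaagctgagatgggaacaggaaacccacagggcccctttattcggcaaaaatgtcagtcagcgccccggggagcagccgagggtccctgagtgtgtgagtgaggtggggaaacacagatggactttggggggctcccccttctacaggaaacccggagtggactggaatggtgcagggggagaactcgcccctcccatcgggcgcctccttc
COL15A1, chr9:98943657-98943906, plus strand: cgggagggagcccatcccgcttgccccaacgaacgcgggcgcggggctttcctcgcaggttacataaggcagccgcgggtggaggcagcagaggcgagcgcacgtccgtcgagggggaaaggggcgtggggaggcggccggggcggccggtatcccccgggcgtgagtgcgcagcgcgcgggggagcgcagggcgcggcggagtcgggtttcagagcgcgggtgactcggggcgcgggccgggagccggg
CLIC3, chr9:136996569-136996818, minus strand: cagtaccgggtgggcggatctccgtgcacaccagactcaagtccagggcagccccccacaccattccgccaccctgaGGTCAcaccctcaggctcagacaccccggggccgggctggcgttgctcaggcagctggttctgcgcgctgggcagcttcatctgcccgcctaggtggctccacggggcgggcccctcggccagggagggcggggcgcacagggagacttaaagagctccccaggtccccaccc
The CLIC3 window held 1 core motif and the other windows 0. None held the full element GGTCANNNTGACC. Of 35116 promoter windows of this length, 32.6% held a core motif on either strand and 0.0399% the full element, so the core motif is common. These are matches of letters only.

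Gene lists were read by how many tested members lay without overlap between the MTDH groups, against 18.5% higher and 9.43% lower for all tested genes. Untreated counts are calls of the untreated fit, in which 5.84% of all tested genes rose and 13.5% fell in knockout cells. The lists were drawn up with earlier results of these data known, so these counts describe the arrays and are not independent evidence. Of 25 mucins and secretory epithelial genes, 15 were bright enough to test, 13 of them were lower in the low group and 0 higher, and their median difference was −1.18. The members furthest apart were MAL, MUC16, MUC5AC and LCN2. In the untreated fit 14 of the 15 fell in knockout cells. Of 28 tested matrix genes, 16 were lower and 4 higher (median −0.36), led by SPON1, COL6A1, TNC (−1.96), a matricellular glycoprotein, and, higher, SPP1. Untreated, 10 fell and 6 rose.

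Epithelial junction genes, the parts of tight junctions and desmosomes, were lower in 12 of 29 and higher in 3 (median −0.15). CLDN7, a claudin (−0.76), KRT19, a simple epithelial keratin (−0.58), the desmosomal cadherin DSC2 (−0.51) and the adhesion molecule EPCAM (−0.40) were furthest apart. Mesenchymal and contractile genes were higher in 13 of 17 and lower in 2 (median 0.25), with ACTA2, SRPX, the actin-binding TAGLN (0.89) and the fibronectin receptor chain ITGA5 (0.59). Untreated, 14 junction genes fell and 2 rose, and 10 contractile genes rose and 1 fell. E-cadherin, CDH1, overlapped between the MTDH groups at 12.14 to 12.56.

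Among genes of TGF-beta, BMP and nodal signalling, 10 of 27 were higher and 6 lower (median 0.11). The BMP target ID3 and BAMBI, a decoy receptor (1.37), were higher, while the nodal inhibitor LEFTY2 and TGFBI, a secreted TGF-beta target (−1.10), were lower. Surface proteases and their inhibitors were lower in 10 of 24 and higher in 6, with TMPRSS2 and PRSS23 (−0.73) lower and SERPINE2 and the plasminogen activator PLAT (0.63) higher. Of 23 tumour necrosis factor receptors and ligands, 7 were higher and 4 lower, and TNFRSF14 was the 1 member past 2-fold. TNFRSF21, death receptor 6 (0.69), the ligand TNFSF9 (0.43) and FAS (0.26) were higher. Under median centring or quantile normalization that list was split 6 higher and 7 lower.

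Antigen presentation genes were higher in 11 of 16 and lower in 0 (median 0.17), namely HLA-E (0.69), HLA-DMA (0.63), CD74, the invariant chain (0.50), and HLA-DMB (0.43) among others. Untreated, 7 rose and 0 fell. Interferon-response genes were higher in 9 of 25 and lower in 3, with IFITM1 (0.51), IFI6 (0.42) and BST2 (0.40) higher and IFI30, a lysosomal thiol reductase (−0.84), lower. NF-kappaB targets, a pathway tied to MTDH in other work, were higher in 3 of 18 and lower in 0, which is near the share of all genes. These were NFKBIA (0.43), SOD2 (0.26) and NFKBIE (0.15), and none of these 3 was called untreated (NFKBIA adjusted p = 0.68). Of all 18, 1 rose and 2 fell in the untreated fit.

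Aldehyde dehydrogenases and genes of oxidative defence were higher in 19 of 27 and lower in 3 (median 0.21). ALDH3A1, CYP1B1 (0.76), which oxidises estradiol, and ALDH2 (0.50) were higher, and AKR1C3, a ketosteroid reductase, was lower (−1.06). Untreated, 7 rose and 3 fell, where 5.84% of all genes rose and 13.5% fell. Of 14 tested BEX, TCEAL and thymosin genes, 10 were higher and 0 lower (median 0.36), led by BEX1, TMSB15A, TCEAL2 and BEX4 (0.81). Untreated, 6 rose and 1 fell, and the median was 0.07. Among stem cell surface markers, KIT and CD24 (1.43) were higher and ALCAM (−0.67) lower, and the drug efflux pump ABCB1 was higher (0.51), with 4 of 11 higher and 3 lower.

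Cholesterol synthesis genes were lower in 10 of 26 and higher in 2 (median −0.11). EBP (−0.67), SC4MOL (−0.61) and NSDHL (−0.55), which act late in the pathway, were lower, and SQLE, squalene epoxidase, was higher (0.54). Untreated, 13 fell and 1 rose. Mitosis genes were lower in 7 of 40 and higher in 1 (median 0.01, or −0.0188 after quantile normalization), and by the untreated test 26 fell and 0 rose (median −0.27), where 13.5% of all genes fell and 5.84% rose. The counts without overlap and the test's counts are different criteria. SPC24, a kinetochore protein, differed by −0.35 in estradiol and −0.78 ± 0.08 untreated, and BIRC5, survivin, by 0.22 and −0.19 ± 0.06. DNA replication genes were lower in 6 of 41 and higher in 1 (median −0.03), against 15 that fell and 0 that rose untreated. RFC3, a clamp loader subunit, was as far apart in estradiol (−0.73) as untreated (−0.71 ± 0.06). DNA crosslink repair genes were lower in 5 of 26 and higher in 2, with FANCD2 at −0.24. For mitosis and replication genes, the labelled test of the difference between the contrasts called 0 members. That test called 1 of 19670 genes (0.00508%) in all, so its count cannot tell these lists from other genes.

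**Figure D5:**
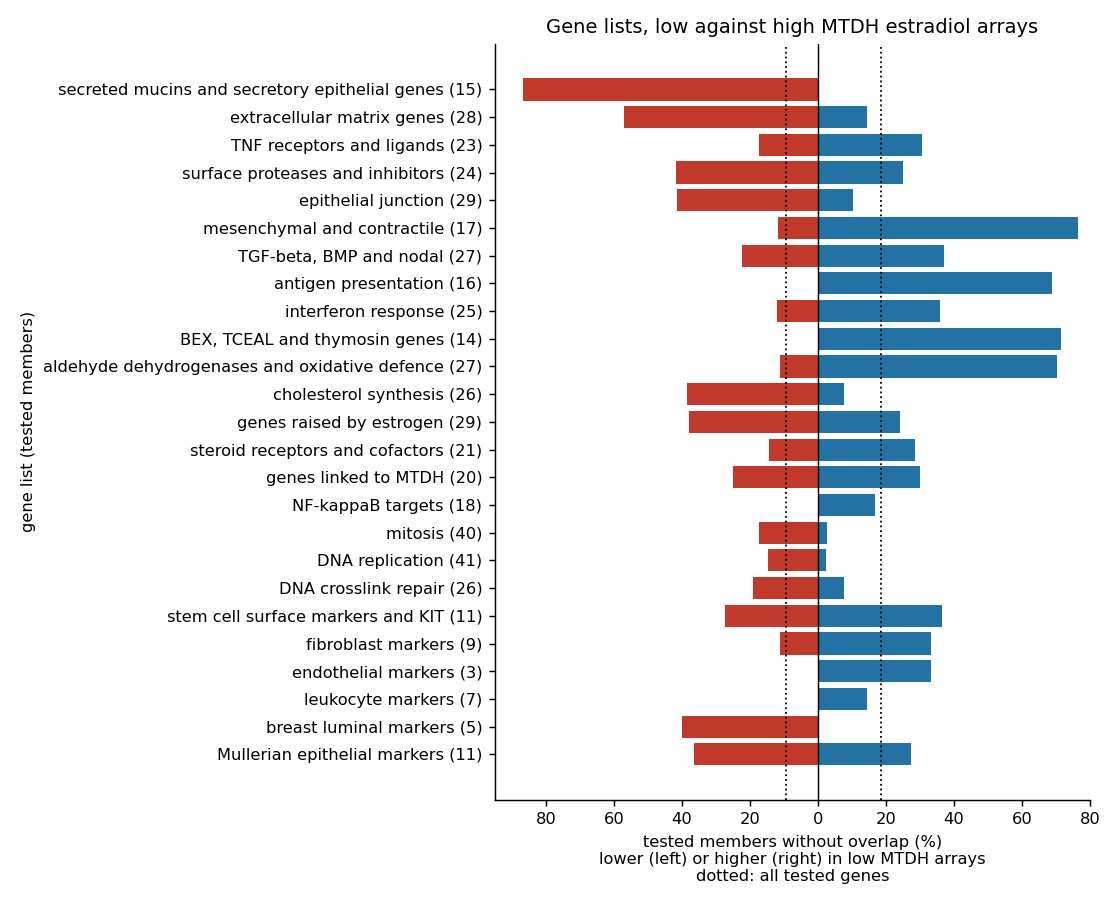
Share of tested members of each gene list that were lower (left, red) or higher (right, blue) in the low MTDH estradiol arrays without overlap with the high arrays; the number tested is in brackets and dotted lines mark the 9.43% and 18.5% of all tested genes. Mucin and secretory genes reach furthest left (13 of 15), and contractile genes furthest right (13 of 17).

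For the genes chosen, with earlier results known, as a check of the estradiol label, all 6 estradiol arrays stood apart from the untreated arrays. THBS1, thrombospondin 1, read 11.97, 11.95 and 11.91 on the high arrays and 12.36, 12.02 and 11.81 on the low arrays, against untreated means of 8.85 and 9.23. SLCO2A1, a prostaglandin transporter, lay between 11.73 and 12.05 on the estradiol arrays, against 8.74 and 8.76 untreated. IGFBP3 lay between 9.64 and 9.86 on the estradiol arrays, against 11.51 and 11.67 untreated. THBS1, SLCO2A1 and IGFBP3 overlapped between the MTDH groups. ALPPL2, chosen for the same check, stood above the untreated arrays on all 6 estradiol arrays, but its MTDH groups did not overlap (−0.57). ESR1 averaged 9.42 on the high arrays and 9.62 on the low arrays. The gap of 0.20 was small but without overlap, whereas in untreated cells ESR1 was lower in knockout (−0.28 ± 0.07, adjusted p = 0.020).

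Of 29 tested genes known to be raised by estrogen, 11 were lower and 7 higher in the low group (median −0.05). AGR2, a disulfide isomerase of secretory cells (−1.48), ADORA1, an adenosine receptor (−0.89), and PRSS23 were lower, and the LIM protein FHL2 was higher (0.64). Being on that list did not always mean a higher level with estradiol here. PRSS23 averaged 9.25 and 8.16 in untreated parental and knockout cells and 8.46 and 7.73 in the high and low groups. AGR2 averaged 8.95 and 7.20 untreated, with 8.47 to 8.53 on the high and 6.95 to 7.09 on the low arrays. FHL2 was higher with estradiol, at 8.12 and 8.72 untreated and 8.57 and 9.21 in the high and low groups. ADORA1 was higher in the high group (0.17) and lower in the low group (−0.36). The response of the list as a whole was not tested. Among 21 steroid receptors and cofactors, GPER, a membrane estrogen-binding receptor, was lower in the low group (−0.42) but higher in untreated knockout cells (0.21 ± 0.06, adjusted p = 0.024). RXRA (0.40) and NR3C2 (0.31) were higher, with 6 higher and 3 lower in all. Of 20 genes linked to MTDH, MTDH itself included, 6 were higher and 5 lower, ALDH3A1, ABCB1 and MYC (0.49) among the former. MTDH, among the latter, formed the groups.

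Several markers of epithelium, though not all, were bright in both groups, and some moved with MTDH. On the estradiol arrays EPCAM was at 12.19 to 12.90, KRT8 at 12.26 to 12.71 and EMX2, a Mullerian factor, at 10.06 to 10.27. KRT18 and PGR lay near array medians there, and CLDN4 was not bright either, at 6.89 to 7.27 with overlap between the groups. EPCAM and KRT8 (−0.35) were lower in the low group without overlap, and EMX2 overlapped. Of 11 tested Mullerian epithelial markers, 3 were higher and 4 lower in the low group (median 0.001, or −0.0325 after quantile normalization). WNT7A (−1.32), SOX17 (−0.78) and PAX8 (−0.20), factors of Mullerian epithelium, were lower, and all 3 also fell in untreated knockout cells. ESR1, on the same list, was higher (0.20). Of 17 fibroblast markers 9 could be tested, 3 higher (ACTA2, COL5A1 and FBN1) and 1 lower (THY1), and the summed linear signal of the 9 was 1562.7 to 1621.2 on the high and 2726.7 to 3062.6 on the low arrays. Without ACTA2, which is also on the contractile list, it was 1136.3 to 1179.7 and 1153.3 to 1244.6, which overlap. DCN, LUM, PDGFRA and PDGFRB were at or below 6.83 on all estradiol arrays. Of 14 leukocyte markers, 7 could be tested, with 1 higher (LYZ, 0.08), and PTPRC was at 6.60 to 6.72. Of 12 endothelial markers, 3 could be tested, and ESAM was higher (0.16). The endothelial marker VWF was at 7.10 to 7.37 on the estradiol arrays and overlapped between the groups. Of 10 breast luminal markers, 5 could be tested, and MLPH and SCGB1D2 (−0.14) were lower. In bulk samples, fewer cells of a type and less RNA per cell cannot be told apart, and the part of other cells in these gaps was not tested.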

How the data were processed

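RNA from 12 samples was measured on Illumina whole-genome arrays by direct hybridization of biotin-labelled material, per the labels' protocols. The deposited values are log2 intensities, 1 per identifier and array (34595 identifiers, 0 missing values). Background correction, normalization and the combining of probes are not given in the sources used here. No further normalization was applied.

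Genes were tested where 3 or more arrays exceeded 6.817, the overall median (19670). Labelled groups were compared with limma 3.58.1 in R 4.3.3 (linear model, empirical Bayes, Benjamini-Hochberg over all genes tested), over 12 arrays for estradiol and for the interaction and over the 6 untreated arrays alone for the untreated lines. The MTDH groups were described by means, differences and overlap, without a test. The members, lists and genes checked were chosen with earlier results of these data known. Named genes were the 12 widest gaps in each direction without overlap, the 6 in each direction that differed most from the untreated contrast, up to 4 per list among 25 lists, and the hormone genes. Cell type markers are a further set. Of 668 list entries, 3 were found under an older symbol and 3 were not matched. Lists got no set test. Labels were never changed. The fits were tested on simulated data whose spread was taken without the 2 arrays against their labels. The simulation therefore does not show how many changes the labelled estradiol and interaction fits could miss. Alternatives were filters, quantile normalization, median centring, priors, weights, the replicate number as a block, thresholds, and arrays left out. The value of 1 named gene is not reported here.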

Additional observations from a re-analysis of the deposited data

Results flagged for a closer look

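The row LOC730255 differed between the 2 line contrasts with the deposited labels (interaction 0.72 ± 0.09 log2, limma adjusted p = 0.033). It was 11.30, 11.31 and 11.16 in untreated parental and 10.70, 10.64 and 10.59 in untreated knockout cells, but 10.94 to 11.05 in the parental and 11.06 to 11.17 in the knockout estradiol label. The 2 arrays whose MTDH went against their label are among these 6 estradiol values.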

How the results depend on the processing

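With deposited labels the estradiol contrast gave 0 calls under every alternative that left out no array or 1 array, and 1926 without both arrays against their labels. The untreated contrast gave 3801 calls, 2152 with all 12 arrays, 446 at a minimum of 1.5-fold, 2022 at an adjusted p under 0.01, and 2212 to 4737 with single arrays left out (2474 without parental untreated replicate 2, 2212 and 2492 without knockout untreated replicates 2 and 3). Quantile normalization moved its share of rises from 30.2% to 54.0%. The interaction gave 1 call, 2 without a filter, 0 with the stricter filter, quantile normalization, the trended and robust prior or the threshold of 0.01, 8 with median centring, 12 with array weights, 148 without both arrays and 0 to 3 with single arrays left out. With the replicate number as a block, the estradiol, untreated and interaction contrasts gave 0, 3771 and 5 calls. Of 18 same-numbered pairs, 6 had deviations correlated above 0.1, and in 8 the array correlated best with its own number, so the numbers are not taken as pairs. Deviations were taken from labelled means, which the 2 arrays against their labels shift in both estradiol groups. Among the 3 pairs of untreated arrays, the own number was best in 1.

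Between the MTDH groups, 3955 to 7111 genes were higher and 1973 to 3007 lower without overlap when single arrays were left out, the 7111 without knockout estradiol replicate 3, the 3007 without parental estradiol replicate 3 and 2924 without knockout estradiol replicate 2. Fewer arrays leave fewer values that can overlap. The 1855 lower genes became 2957 after quantile normalization and 3941 over the 4 arrays. The 2-fold counts became 31 to 46 higher and 64 to 70 lower with single arrays left out, 192 and 218 at 1.5-fold, and 2 and 14 at 4-fold. The share of signs kept was 90.4% after quantile normalization, 78.9% after median centring, 83.1% over the 4 arrays and 99.0% for genes past 2-fold. Positions for parental estradiol replicates 1 and 2 and knockout estradiol replicate 1 were 0.984, 0.986 and 0.969 after quantile normalization, 0.931 for the last after centring, and 0.924, 0.938 and 0.879 at 4-fold. Knockout estradiol replicates 2 and 3 were at −0.0223 and −0.0434 at 4-fold, and replicate 3 at 0.05 after quantile normalization. Of 927 recomputed differences of 103 named genes, 913 moved by less than 1 SD and 2 changed sign: THBS1, from 0.12 to −0.0425 over the 4 arrays and −0.0247 without parental estradiol replicate 3 (highest 0.248, without knockout estradiol replicate 3). The 25 genes named only as cell type markers are not among these, and 13 of them, all overlapping between the groups and none over 0.08 in size, changed sign under at least 1 alternative. Where no cause is given, the cause was not tested.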
